A study of Mus musculus with 2 samples.

Results

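Neural adhesion molecules and receptor phosphatases were examined as a list of 10 genes, Ptprf, Ptprs, Ptprd, L1cam, Nrcam, Ncam1, Nfasc, Robo1, Robo2 and Dscam, in RNA-seq of mouse N2A neuroblastoma cells. Within the spans of these genes, on their own strand, the SpliceTrap files hold 370 exon trios, each a middle exon with both neighbouring exons, out of 218362 trios of the cassette and constitutive classes in the whole series. A trio was kept when it had at least 20 reads in each library, which left 129 trios and 113 distinct middle exons, out of 113754 distinct exons in the whole series. All 113 exons lie in 4 genes: 33 in Ptprf, 32 in Ptprs, 28 in L1cam and 20 in Ncam1. The other 6 genes had no trio with enough reads. Nearest to the minimum were 2 trios of Ptprs, one kept with 26 reads in the shControl library and 37 in the shptbp1 library, and one left out with 17 and 15. Among the 113 exons, a Ptprs exon of 600 nucleotides had 28 and 62 reads in the trio used.

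The study compared N2A cells transfected with shControl, a control shRNA, with N2A cells transfected with shptbp1, an shRNA against Ptbp1 alone, and RNA was taken 3 days after transfection. Each condition is 1 library of 1 cell line, made by a strand-specific protocol, so the differences below have no replicate check. Whether the transfected cells were selected is not given in the sources used here. Over 406367 distinct junctions of the exon database, the shControl library had 74382387 junction reads and the shptbp1 library 58295142. Junction reads on Ptbp1 fell from 40588 to 10676, a log2 ratio of -1.58 after scaling to these totals, and those on its homolog Ptbp2 went from 5169 to 9814, a log2 ratio of 1.28. The labelled cell type was checked against markers. Of 15 neuronal or neuroblast markers, 11 had more than 3 junction reads in each library, Phox2a of sympathetic neuroblasts among them. Dcx had 0 in both libraries, Nefl 1 and 3, and Nefm 1 and 2. Hand2 also had 0 in both, although its level by Cufflinks depth was 370 in the shControl library and 420 in the shptbp1 library. Ptprc and Aif1 of blood cells had 0 junction reads in both. More than 3 reads were also found for 3 of 4 glial genes in the shControl library and 2 in the shptbp1 library. Pecam1 of endothelium had more than 3 in both, so passing this minimum alone does not tell cell types apart. Reads on 5 fibroblast genes went from 46 to 121 in sum and those on 4 glial genes from 183 to 102. Those on Pecam1 went from 246 to 250. Scaled to the junction totals, 4 of the 11 neuronal or neuroblast markers were higher by 1.5-fold or more and 0 lower. The shares over all genes with more than 3 junction reads in a library were 24.7% and 2.13%. The 4 higher markers were Dbh, an enzyme of noradrenaline synthesis (3755 and 12900 reads), Th (63 and 289), Gata3 (299 and 479) and Gap43 (3123 and 4222). By Cufflinks depth Gata3 went the other way, with a level of 4.71 in the shControl library and 1.84 in the shptbp1 library. Stmn2 went down, from 11650 to 6794 reads, a log2 ratio of -0.43. Of the 5 fibroblast genes, 4 were higher by 1.5-fold or more and 0 lower, and of the 4 glial genes 0 and 1. The part of all these genes in the results was not tested.

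PTBP1 is an RNA-binding protein that recognises pyrimidine-rich sequence and often represses exons that neurons include. Many of its known targets are short exons, and the amount of PTBP1 falls when neuronal precursors differentiate. Cell adhesion molecules of the immunoglobulin superfamily and the LAR family of receptor tyrosine phosphatases sit at the growth cone and the synapse, where short alternative exons change the ectodomain that binds partners or the cytoplasmic tail that binds the cytoskeleton and the endocytic machinery. L1cam has one such exon near its N terminus and one in its tail, both typical of neurons. Ncam1 is made in a long and a shorter membrane-spanning form and in a form held to the membrane by a lipid anchor, which ends in another last exon.

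The exons that carry the results are shown first, with the end of the intron upstream in lower case, the exon in capitals, and for short exons the start of the intron downstream in lower case. Sequences are from the NCBIM37 assembly, which is mm9, on the minus strand, which is the strand of each of these genes. For exons over 40 nucleotides only the first 30 bases of the exon are shown. The first 5 are the exons whose inclusion moved.
L1cam, 12 nucleotides, chrX:71100971-71101082: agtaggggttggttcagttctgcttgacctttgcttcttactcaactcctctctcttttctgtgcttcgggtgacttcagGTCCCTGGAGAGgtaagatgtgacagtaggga
L1cam, 15 nucleotides, chrX:71112341-71112455: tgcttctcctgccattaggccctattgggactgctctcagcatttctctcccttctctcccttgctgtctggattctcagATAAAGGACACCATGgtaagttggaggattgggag
Ptprf, 33 nucleotides, chr4:117890597-117890729: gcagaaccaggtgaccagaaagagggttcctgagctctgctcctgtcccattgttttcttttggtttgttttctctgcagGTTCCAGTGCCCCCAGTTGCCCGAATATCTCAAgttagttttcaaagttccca
Ncam1, 801 nucleotides, chr9:49315729-49315838: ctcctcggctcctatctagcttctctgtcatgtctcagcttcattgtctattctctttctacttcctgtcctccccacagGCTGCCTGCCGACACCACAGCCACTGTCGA
Ptprf, 579 nucleotides, chr4:117898953-117899058: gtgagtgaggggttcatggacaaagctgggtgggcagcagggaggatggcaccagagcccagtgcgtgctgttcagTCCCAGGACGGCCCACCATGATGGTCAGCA
The next 2 are short cassette exons of the same genes that did not pass the call, shown for comparison.
Ptprs, 27 nucleotides, chr17:56567194-56567320: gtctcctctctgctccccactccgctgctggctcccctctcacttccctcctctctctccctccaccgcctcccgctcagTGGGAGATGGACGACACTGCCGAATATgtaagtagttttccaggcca
Ncam1, 30 nucleotides, chr9:49358625-49358754: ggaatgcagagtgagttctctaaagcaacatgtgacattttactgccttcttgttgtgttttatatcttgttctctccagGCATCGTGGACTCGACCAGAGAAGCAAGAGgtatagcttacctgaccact
The last pair are the splice sites between which the 3′ end of Ncam1 is chosen.
Ncam1, last exon of the lipid-anchored form, chr9:49325658-49325767: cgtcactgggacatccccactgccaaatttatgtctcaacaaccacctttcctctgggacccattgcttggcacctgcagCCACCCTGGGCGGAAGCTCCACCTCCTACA
Ncam1, first exon of the membrane-spanning end, chr9:49317988-49318097: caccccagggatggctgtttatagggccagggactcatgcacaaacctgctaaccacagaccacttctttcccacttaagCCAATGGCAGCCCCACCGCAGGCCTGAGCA

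In the shptbp1 library, 4 of the 113 member exons were included more and 1 less than in the shControl library. Both short exons of L1cam, the exon of 33 nucleotides in Ptprf and the exon of 801 nucleotides that makes the long form of Ncam1 rose, and the exon of 579 nucleotides in Ptprf fell. Inclusion is given as PSI, the percent of transcripts that SpliceTrap estimated to hold the exon. An exon was counted as moved when PSI differed by 5 points or more and the 95% Newcombe interval of the change in junction PSI lay on the same side of 0. Junction PSI uses junction reads alone: with inclusion reads averaged over both inclusion junctions, it is their percent of all inclusion and skipping reads. Its intervals cover counting error only, since each condition is 1 library. They treat reads as independent molecules, which sequenced reads are not, so they can be too narrow. In RNA from a whole culture, a small change in all cells and a large one in some of them cannot be told apart.

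Of all 113754 exons, 0.625% rose and 0.648% fell by the same rule. Of the 8 member exons that the exon database classes as cassette exons, 2 rose and 1 fell, against 8.43% and 6.28% of the 6581 cassette exons in the files. Of the 7 member exons of 30 nucleotides or less, 2 rose and 0 fell, and the shares over all 991 exons of this length were 12.6% and 0.605%. With 8 and 7 exons, these counts describe the genes and set them apart from no other genes. Both L1cam exons belong to the constitutive class of the database although they were skipped in part of the transcripts of both libraries. The plot of PSI for 12 exons of the 4 genes shows each library's value.

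**Figure D1:**
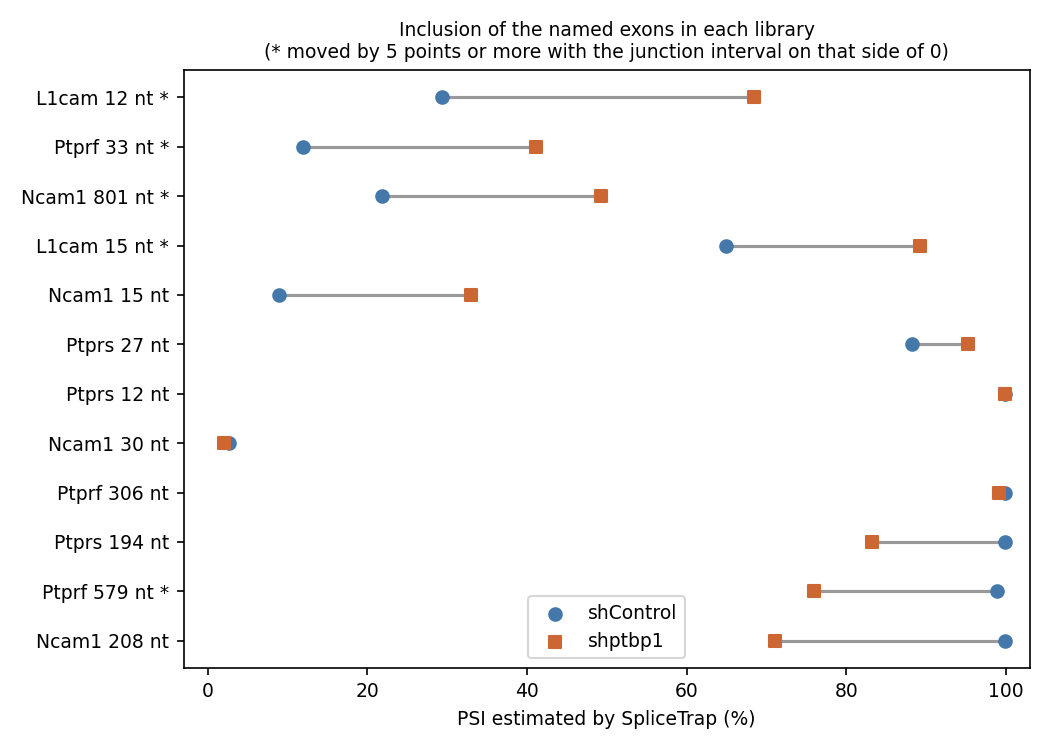
PSI estimated by SpliceTrap (percent, horizontal axis) of 12 exons of L1cam, Ptprf, Ncam1 and Ptprs in the shControl library (circles) and the shptbp1 library (squares), 1 library each; a star marks the exons that moved. The 4 starred exons at the top rose by 24.3 to 39.1 points, and the starred Ptprf exon of 579 nucleotides fell by 22.9 points.

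L1cam encodes a homophilic adhesion molecule of axons, and both of its short exons lie inside the coding sequence, as exons 3 and 28 of the annotated transcript L1cam-001. The exon of 12 nucleotides (chrX:71100991-71101002) belongs to the cytoplasmic tail, where it completes a signal for sorting and for endocytosis through the adaptor AP2. Its PSI was 29.4 in the shControl library and 68.5 in the shptbp1 library. In the trio used, the inclusion junctions had 298 and 0 reads in the shControl library and 845 and 0 in the shptbp1 library, and the skipping junction had 632 and 360. The trio of the neighbouring exon counts 86 and 117 reads on the junction listed at 0 here, so that 0 lowers the junction PSI of both libraries. On the junction with reads, inclusion outnumbered skipping in the shptbp1 library alone. Junction PSI went from 19.1% (95% Wilson interval 16.5 to 22.0) to 54.0% (50.5 to 57.5), a change of 34.9 points (Newcombe interval 30.4 to 39.2).
With the largest count of each junction over all trios, a choice made after seeing the data, junction PSI was 23.3% (20.5 to 26.3) and 57.2% (53.8 to 60.5), a change of 33.9 points (29.4 to 38.2). Taking the larger inclusion junction alone, the change was 38.1 points (34.0 to 41.9).

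The L1cam exon of 15 nucleotides (chrX:71112361-71112375) lies near the N terminus of the mature protein, in the part that takes part in adhesion. Its PSI was 65.0 in the shControl library and 89.3 in the shptbp1 library. The shControl library had 302 and 35 reads on the inclusion junctions and 162 on the skipping junction, and the shptbp1 library had 493 and 60 against 65. Skipping reads fell while inclusion reads rose, and junction PSI went from 51.0% (45.6 to 56.3) to 81.0% (76.5 to 84.8), a change of 29.98 points (22.99 to 36.6). The other 26 L1cam exons, 71 to 223 nucleotides long, had PSI above 95 in both libraries and differed by -0.8 to 0.2 points. The 2 exons that moved were thus the shortest of the 28 L1cam exons, and the only ones of these 28 below 97.4 in the shControl library.

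Ptprf encodes LAR, a receptor tyrosine phosphatase with immunoglobulin and fibronectin type III domains outside the cell and phosphatase domains inside, which binds liprins at synapses. Its exon of 33 nucleotides (chr4:117890617-117890649) had a PSI of 11.9 in the shControl library and 41.2 in the shptbp1 library. The shControl library had 62 and 16 reads on the inclusion junctions and 447 on the skipping junction, and the shptbp1 library had 218 and 63 against 310. The exon was thus skipped in most transcripts of both libraries. Junction PSI went from 8.02% (5.93 to 10.8) to 31.2% (27.1 to 35.6), a change of 23.2 points (18.2 to 28.1).

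The Ptprf exon of 579 nucleotides (chr4:117898404-117898982), exon 15 of Ptprf-001, went the other way. It codes for part of the fibronectin type III repeats, which differ in number between LAR forms. Its PSI was 98.9 in the shControl library and 76.0 in the shptbp1 library. Skipping reads went from 6 to 85, while the inclusion junctions had 293 and 234 reads in the shControl library and 260 and 181 in the shptbp1 library. Junction PSI fell from 97.8% (95.2 to 99.0) to 72.2% (66.9 to 76.9), a change of -25.6 points (-31.0 to -20.2). This was the one member exon that passed the call downwards.

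The Ptprf exon of 306 nucleotides, exon 12 of Ptprf-001, was included in nearly all transcripts, with a PSI of 99.9 in the shControl library and 99.1 in the other. A further 29 Ptprf exons differed by -3.8 to 1.9 points and were above 95 in both libraries.

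Ptprs encodes a second LAR-family phosphatase, a receptor for proteoglycans. Its exons had fewer reads, with medians of 159 and 191 trio reads over 29 exons against 1476 and 1640 over 29 exons of Ptprf.
No Ptprs exon passed the call. Its exon of 27 nucleotides (chr17:56567214-56567240) had a PSI of 88.3 in the shControl library and 95.3 in the shptbp1 library. Only 17 and 4 inclusion reads against 3 skipping reads were counted in the shControl library, and 29 and 5 against 2 in the shptbp1 library, so the interval of the change in junction PSI was wide, from -13.6 to 39.4 points. The Ptprs exon of 12 nucleotides, exon 20 of Ptprs-001, had a PSI of 99.9 in both libraries. The trio used held no skipping read in either library. Other trios did hold some: by each junction's largest count, 3 reads skipped this exon in the shControl library and 1 in the shptbp1 library. Junction PSI by these counts was 90.6% (75.8 to 96.8) and 97.8% (88.6 to 99.6), and the exon again did not pass the call. The exon of 194 nucleotides went from a PSI of 99.9 to 83.2 on 0 and 1 skipping reads, and the junction interval was -47.1 to 27.9 points.

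One further Ptprs exon was picked after its values were seen, because like the Ptprf exon of 579 nucleotides it is long and was partly skipped. The exon of 600 nucleotides (chr17:56564750-56565349), exon 14 of Ptprs-001, had a PSI of 44.1 in the shControl library and 38.0 in the shptbp1 library. It had 3 and 6 inclusion reads against 2 skipping reads in the shControl library and 5 and 21 against 10 in the shptbp1 library. The interval of -42.2 to 27.6 points includes a fall as large as that in Ptprf and a rise as well. At this depth a change in either direction was not detectable.

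**Figure D2:**
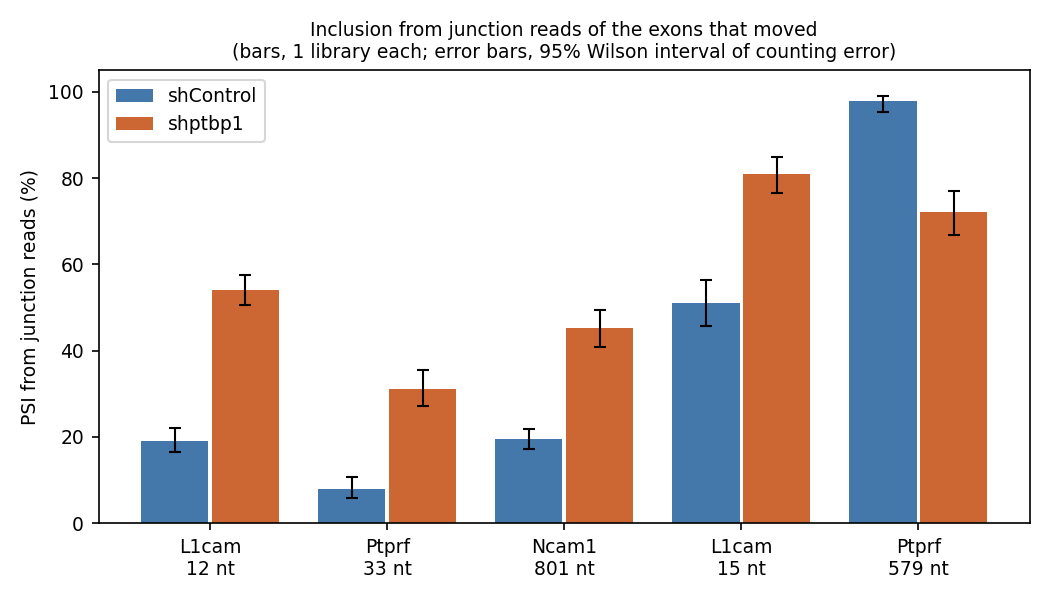
Junction PSI (percent, vertical axis from 0) of the 5 exons that moved, in the shControl library (left bars) and the shptbp1 library (right bars), 1 library each; error bars are 95% Wilson intervals of counting error. In none of the 5 exons do the intervals of the libraries overlap, and the Ptprf exon of 579 nucleotides is the one that was lower in the shptbp1 library.

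For each of these 5 changes the inclusion and skipping reads were also compared (two-sided Fisher's exact test), adjusted by Benjamini-Hochberg over all 113754 exons. This compares these libraries and not the conditions. It uses the same junction counts as the interval of the call, so it is not an independent check. The adjusted p was 3.29e-44 for the L1cam exon of 12 nucleotides, 1.78e-13 for that of 15 nucleotides, 5.98e-17 for the Ptprf exon of 33 nucleotides, 2.75e-16 for that of 579 nucleotides and 2.19e-22 for the Ncam1 exon of 801 nucleotides. They were the 5 member exons with an adjusted p under 0.05 in this Fisher's exact test, a level that 0.528% of all exons reached. In the trio used, no skipping read was counted in either library for 74 of the 113 member exons.

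Ncam1 encodes the neural cell adhesion molecule, whose forms differ mainly at the 3′ end. The exon of 801 nucleotides (chr9:49314958-49315758), exon 17 of Ncam1-205, lengthens the cytoplasmic tail and makes the form known as NCAM-180, while transcripts that skip it make NCAM-140. Its PSI was 21.9 in the shControl library and 49.3 in the shptbp1 library. The inclusion junctions had 186 and 231 reads in the shControl library and 205 and 256 in the shptbp1 library, and the skipping junction had 864 and 280. Most of the difference lay in the skipping reads. Junction PSI went from 19.4% (17.2 to 21.9) to 45.2% (40.9 to 49.5), a change of 25.7 points (20.8 to 30.6).

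Upstream of this exon, Ncam1 transcripts are joined either to the exons of the membrane-spanning end or to the last exon of the lipid-anchored form, NCAM-120. This choice is not an exon trio and was picked after its values were seen. Exon 14 of Ncam1-205 (its 3′ end at chr9:49328140) was joined to the last exon of the lipid-anchored form (chr9:49323244-49325687) by 299 reads in the shControl library and 979 in the shptbp1 library. It was joined to the exon that opens the membrane-spanning end (chr9:49317810-49318017) by 392 and 205 reads. The larger count was thus on the membrane-spanning end in the shControl library and on the other in the shptbp1 library. The share of reads joined to the last exon of the lipid-anchored form was 43.3% (39.6 to 47.0) in the shControl library and 82.7% (80.4 to 84.7) in the shptbp1 library, a difference of 39.4 points (35.1 to 43.6; two-sided Fisher's exact test between these libraries, unadjusted p = 4.95e-69).

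The counts on single junctions of one transcript were uneven. The next junction of the membrane-spanning end had 1130 reads in the shControl library and 564 in the shptbp1 library, more than the junction before it. With this next junction in its place, the shares were 20.9% (18.9 to 23.1) and 63.4% (61.0 to 65.8), a difference of 42.5 points (39.3 to 45.6). The levels of the shares therefore depend on the junction used, and the direction and size of the difference were alike with both.

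Scaled to the junction totals, the 13 Ncam1 junctions upstream of this choice with more than 500 reads in the shControl library had log2 ratios of 0.49 to 0.73 of knockdown over control. The junction to the last exon of the lipid-anchored form had a log2 ratio of 2.06. The junctions into and out of the exon of 801 nucleotides had 0.39 and 0.49, near those upstream, and the junction that skips it had -1.23. Of the 3 ends, that of NCAM-120 thus had the highest ratio, that of NCAM-180 lay near the 5′ part of the gene, and that of NCAM-140 was the lowest.

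**Figure D3:**
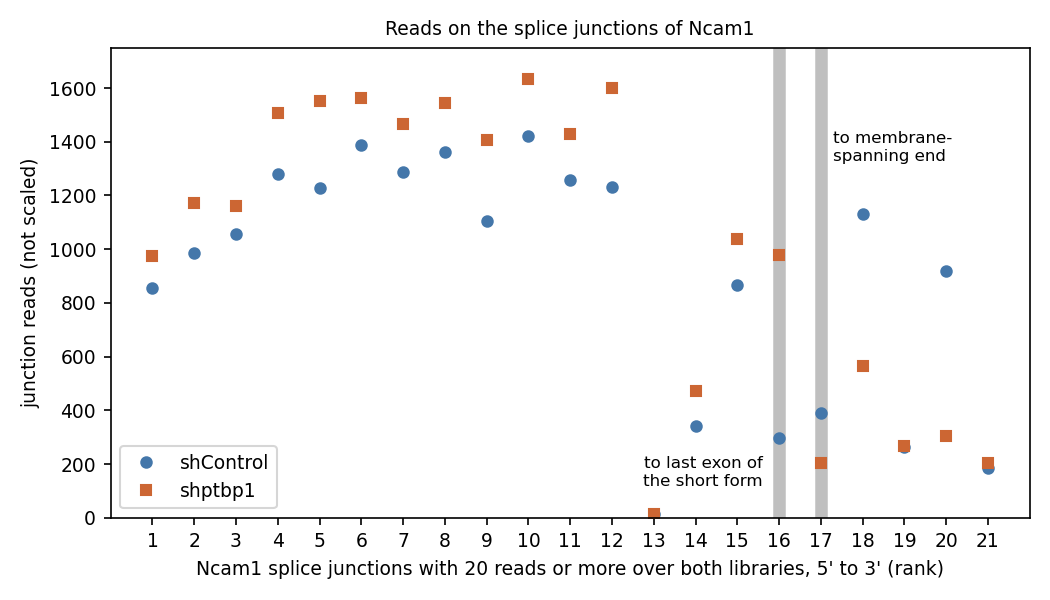
Reads on 21 splice junctions of Ncam1 (vertical axis, not scaled to library size), ranked 5′ to 3′ (horizontal axis), in the shControl library (circles) and the shptbp1 library (squares); grey bands mark the junctions to the last exon of the lipid-anchored form and to the membrane-spanning end. In the first band the shptbp1 library lies above the shControl library, with 979 against 299 reads, and in the second below it, with 205 against 392.

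The exon of 208 nucleotides that opens the membrane-spanning end showed a PSI of 99.9 in the shControl library and 71.1 in the shptbp1 library. No read skipped it in either library, so the junction reads show no change (interval -1.05 to 0.512 points), and the exon did not pass the call. In its own trio the inclusion junctions had 1130 and 363 reads in the shControl library and 560 and 167 in the shptbp1 library, below some of the counts above, which are the largest over all trios that hold a junction.

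Other alternative exons of Ncam1 lie further upstream. The exon of 30 nucleotides (chr9:49358645-49358674) is the VASE exon of an immunoglobulin domain, which neurons of the adult brain include, and GENCODE has no exon at this position. Its PSI was 2.7 in the shControl library and 2.0 in the shptbp1 library, with 34 and 14 inclusion reads against 1223 skipping reads, and 28 and 9 against 1379. The exon was skipped in nearly all transcripts of both libraries, and the change in junction PSI was -0.601 points (-1.64 to 0.375).

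The exon of 15 nucleotides (chr9:49349993-49350007) belongs to a group of short exons known from muscle. Its PSI was 8.9 and 33, but it had 0 and 3 inclusion reads against 1 skipping read in the shControl library and 4 and 14 against 4 in the shptbp1 library. The interval of -32.97 to 57.4 points leaves its change in this trio undetermined. Another junction, between chr9:49351116 and chr9:49331751, also passes over the exon and is not in this trio. It had 342 reads in the shControl library and 474 in the shptbp1 library. The PSI of the trio is therefore not the share of all Ncam1 transcripts, of which few held the exon in either library. The other 16 Ncam1 exons had PSI above 95 in both libraries and differed by 0 to 0.6 points.

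What the 5 moved exons share beyond the rule was described from the genome sequence. All 5 are coding. Their lengths are all multiples of 3, as are the lengths of 38.0% of the 108 member exons that did not move, coding or not. Over the whole series the share was 38.9% of all exons, 70.6% of the exons that rose and 46.5% of those that fell. The upstream intron was read for triplets made of pyrimidines alone, in up to 250 nucleotides before the exon or as much of them as is intron. The median over all exons was 18.5% of overlapping triplets.

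All 4 exons that rose lay above this median, and the exon that fell lay below it. The values were 32.3% for the L1cam exon of 12 nucleotides, 32.7% for that of 15 nucleotides, 35.9% for the Ncam1 exon of 801 nucleotides and 27.4% for the Ptprf exon of 33 nucleotides. These are higher than in 96.7%, 96.9%, 98.3% and 91.0% of all exons. Upstream of the Ptprf exon of 579 nucleotides the intron is 76 nucleotides long, as printed above, and 4.05% of its triplets are made of pyrimidines alone, with no run of more than 3 pyrimidines. That share is higher than in 0.0810% of all exons. Within the nearest 100 nucleotides the median over all exons was 21.4%, and the 4 exons that rose had, in the same order, 32.3%, 37.8%, 48.0% and 29.6%. These are higher than in 88.9%, 95.3%, 99.0% and 82.0% of all exons. The intron window of the L1cam exon of 12 nucleotides is only 95 nucleotides long, so both of its shares come from the same sequence. Its rank in the long window thus compares a short intron with mostly longer windows.

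High shares were also found upstream of exons that did not pass the call. Of the 108 exons that did not move, 17 had a share at or above the 27.4% of the Ptprf exon, and 69 lay above the median of all exons. Among them were the Ptprs exon of 145 nucleotides, with 41.1%, and the L1cam exon of 106 nucleotides, with 39.1%. The Ptprs exon of 27 nucleotides had 40.3%, higher than in 99.2% of all exons. The VASE exon, with 18.1%, lay near the median. Upstream of the last exon of the lipid-anchored form of Ncam1 the share was 39.9%, higher than in 99.1% of all exons, and upstream of the competing exon it was 18.1%. In the nearest 100 nucleotides these shares were 20.4% and 17.3%, both below the median of all exons.

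The letters CTCTCT were searched on the transcript strand only, and they overlap the pyrimidine triplets. In up to 250 intron nucleotides upstream they were found for 2 of the 5 moved exons. These 2 were the L1cam exon of 12 nucleotides and the Ptprf exon of 33 nucleotides. The same letters were found upstream of 18 of the 108 member exons that did not move and of 15.4% of all exons. A match describes the sequence and is not a binding site. Over the whole series, medians were 23.4% pyrimidine triplets for the exons that rose and 18.1% for those that fell.

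**Figure D4:**
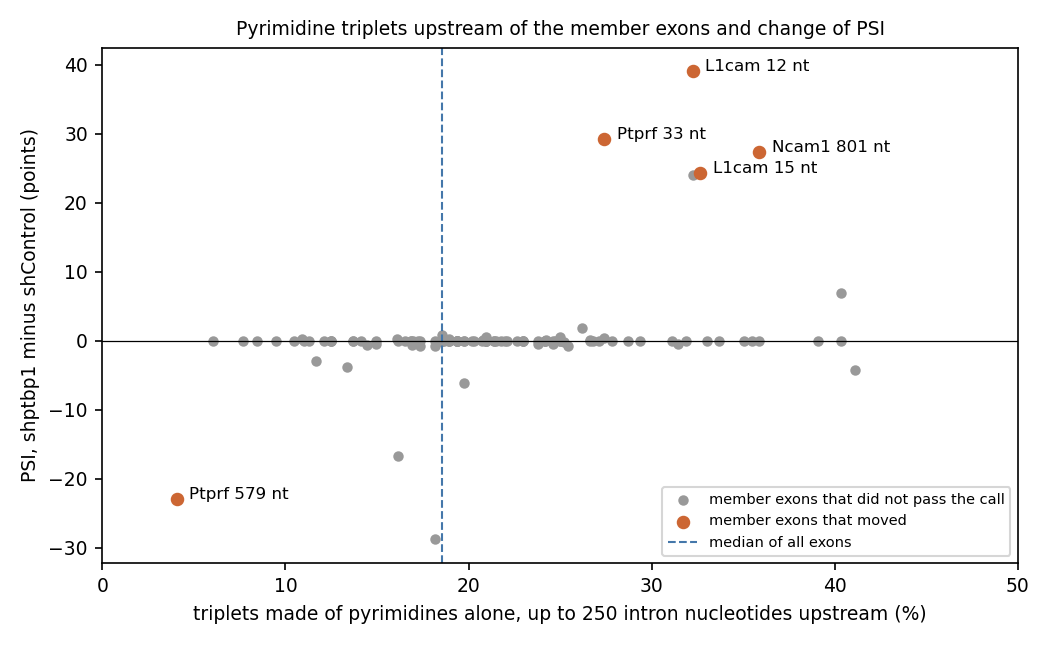
Change of PSI (points, shptbp1 minus shControl, vertical axis) against the share of triplets made of pyrimidines alone in up to 250 intron nucleotides upstream (percent, horizontal axis) for the 113 member exons; named points are the 5 exons that moved, and the dashed line is the median of all exons, 18.5%. The 4 exons that rose lie to the right of the line at 27.4% to 35.9%, and the Ptprf exon of 579 nucleotides lies at the left edge at 4.05%.

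At the level of whole genes, 4 members were expressed at a level that allowed their exons to be measured. L1cam had 20753 junction reads in the shControl library and 24281 in the shptbp1 library, Ncam1 18872 and 21089, Ptprf 11230 and 11667, and Ptprs 1116 and 1512. Scaled to the junction totals, all 4 were higher in the shptbp1 library, and so was the median gene, with a log2 ratio of 0.21. The log2 ratio was 0.58 for L1cam (95% exact binomial interval 0.55 to 0.60), 0.51 for Ncam1 (0.48 to 0.54), 0.41 for Ptprf (0.37 to 0.44) and 0.79 for Ptprs (0.68 to 0.90). These intervals cover counting error only.

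The other members were at or near the limit of detection. Nrcam, a relative of L1cam at nodes of Ranvier, had 10 and 13 junction reads, Dscam, a receptor in neurite self-avoidance, 3 and 0, and Nfasc, the neurofascin of the axon initial segment, 1 and 2. Ptprd, the third LAR-family phosphatase, and Robo1 and Robo2, receptors of Slit proteins, had 0 in both libraries, which allows up to 0.0403 reads per 1000000 junction reads in the shControl library and 0.0515 in the shptbp1 library. Of the members with more than 3 junction reads in a library, Ptprs and Nrcam were higher by 1.5-fold or more and 0 were lower, while 24.7% of all genes with such reads were higher and 2.13% lower. The Nrcam ratio of 0.73 rests on few reads (-0.57 to 2.08), and L1cam lay just under the limit of 1.5-fold.

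**Figure D5:**
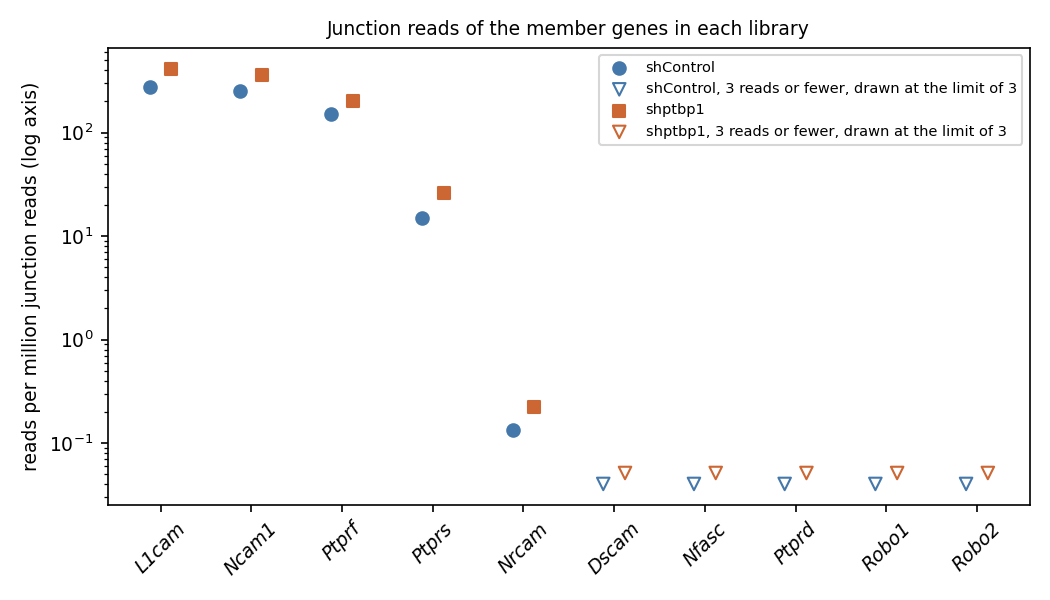
Junction reads per 1000000 junction reads of the library (vertical log axis) for the 10 member genes in the shControl library (circles) and the shptbp1 library (squares), 1 library each; open triangles are genes with 3 reads or fewer, drawn at the limit that 3 reads set. L1cam, Ncam1, Ptprf and Ptprs lie at 15.0 to 417 reads per 1000000, Nrcam below 1, and the other 5 genes at the limit.

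The depth that Cufflinks gave to the RefSeq isoforms of each gene, the measure chosen for the gene level, differed from this. On that measure L1cam was higher by 1.5-fold or more, and Ncam1, Nrcam and Ptprs lower, against 27.4% higher and 13.9% lower of all 13637 genes measured. The summed mean depth per base was 548 in the shControl library and 776 in the shptbp1 library for L1cam, a log2 ratio of 0.79 after scaling, and 113 and 99.7 for Ptprf, a ratio of 0.11. For Ncam1 it was 756 and 362, a ratio of -1.07, and for Nrcam 0.275 and 0.1003, a ratio of -1.12. The Ptprs isoform had a depth of 24.2 in the shControl library and was listed at 0 in the shptbp1 library.

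These falls were not seen when all isoforms of the locus, those assembled from the reads included, were summed. On that scale the depth was 908 and 1265 for Ncam1, a log2 ratio of 0.19, 43.1 and 63.0 for Ptprs, a ratio of 0.54, and 0.275 and 0.335 for Nrcam, a ratio of 0.59. The rise of L1cam by 1.5-fold was not seen on that scale either, with a log2 ratio of 0.46. In the shptbp1 library both RefSeq isoforms of the membrane-spanning end of Ncam1 were listed at 0 beside 6 assembled transcripts. The RefSeq isoform of the lipid-anchored form had a depth of 137 in the shControl library and 362 in the shptbp1 library. Levels per length, as depth per 1000000 of the summed depth of all isoforms, were in the shControl library 86.1 for Ncam1, 62.4 for L1cam, 12.9 for Ptprf and 2.75 for Ptprs, and below 0.04 for the other 6 genes.

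Partners and relatives of the members were read from a list of 80 genes, of which 51 were measured. By RefSeq depth 16 were higher by 1.5-fold or more and 7 lower, which is 31.4% and 13.7%, near the shares over all genes. By junction reads 14 of 51 were higher and 1 lower, or 27.5% and 1.96%. The median log2 ratio was 0.28 by depth and 0.23 by junction reads, against 0.12 and 0.21 over all genes.

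By group and RefSeq depth, 3 of 7 other receptor phosphatases were higher and 3 lower, 4 of 11 immunoglobulin adhesion molecules were higher and 0 lower, 4 of 14 ligands higher and 2 lower, and 5 of 19 intracellular partners higher and 2 lower. By junction reads the phosphatases had 2 higher and 0 lower of 7, the adhesion molecules 3 and 0 of 10, the ligands 5 and 1 of 14, and the partners 4 and 0 of 20. Over all genes, 27.4% were higher and 13.9% lower by depth, and 24.7% and 2.13% by junction reads. Most phosphatase calls by depth rest on genes with a level of 0 in 1 library and 0.0611 to 0.492 in the other. A phosphatase gene of this kind that was lower by depth had a log2 ratio of 1.03 by junction reads. Each of the other groups also held such a call, with a level of 0 in 1 library and 0.0626 to 0.228 in the other.

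Of the 6 named genes, Mcam was past 2-fold by both measures. It encodes an immunoglobulin adhesion molecule also known as CD146. Its level per length was 19.6 per 1000000 in the shControl library and 64.7 in the shptbp1 library, a log2 ratio of 1.69, and its junction reads went from 2719 to 9254, a ratio of 2.12. Ppfia1, a liprin that binds the phosphatase domains of the LAR family, had a level per length of 16.3 and 7.12, a log2 ratio of -1.24, and a ratio of -0.55 by junction reads (9409 and 5022). Flrt1, a ligand of adhesion receptors without counted junctions, had levels of 0.873 and 1.87, a log2 ratio of 1.05.

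For the other 3 named genes the measures differed. Ank3, the ankyrin that holds L1 family members at the axon initial segment, had a log2 ratio of -1.36 by depth and 0.20 by junction reads, Pak1, a kinase downstream of Robo and adhesion signals, 1.66 and 0.30, and Sdc4, a proteoglycan, 2.31 and -0.73 on 19 and 9 junction reads. No direction is given for these 3 genes.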

How the data were processed

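Per the labels, reads of 100 bases were called with CASAVA and processed with TopHat and Cufflinks on mm9; versions are not given in the sources used here. For each exon trio the authors deposited the inclusion ratio of SpliceTrap, a fraction given before and after correction, the read count of each junction, and the coverage signal in reads per 100 nucleotides. For Cufflinks isoforms and genes the authors deposited FPKM and, for isoforms, the coverage signal as mean depth per base, with no normalization between libraries. The deposited transcript models were not used.

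PSI was the corrected fraction times 100, from the trio with the most reads where an exon had several. Trio reads were coverage times trio length divided by 100. Where a junction lies in several trios, its largest count was used for gene totals. Gene levels were coverage times length, summed over RefSeq isoforms and divided by the library's sum over all isoforms. RefSeq isoforms were matched to symbols for 26915 of 27601 in the shControl library and 26919 of 27604 in the shptbp1 library. They held 60.4% and 58.2% of the summed bases. Values of 3 reads or fewer were set to 3 for ratios, and no ratio was given where both libraries had 3 or fewer.

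Coordinates and sequence come from NCBIM37 with its GENCODE annotation, and AG precedes 99.7% of all exons there. Exons named were those that moved, those of 30 nucleotides or less, those of the cassette class and each gene's largest change; related genes named were past 2-fold with a level of at least 1 per 1000000 of depth. Some items are not reported here. Members and lists were chosen with earlier results of these data known. Statistics were tested on simulated data. The simulation gave both inclusion junctions of an exon the same count, so uneven junctions such as those above were not tested. Scripts ran on SciPy 1.17.1, pandas 2.3.3, NumPy 2.4.6 and Python 3.11.15, and figures were drawn with matplotlib 3.10.9.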

Additional observations from a re-analysis of the deposited data

How the results depend on the processing

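The counts of 4 member exons that rose and 1 that fell were the same with a minimum of 10 or 50 reads, a threshold of 10 points, the ratio before correction, junction PSI, the mean over all trios, Fisher's exact test in place of the interval, the larger inclusion junction, and the largest count of each junction over all trios, the last 2 chosen after seeing the data. Most of these settings keep the same junction interval or the same junction counts, so they are not independent checks. Gene levels depended on the measure. Against 1 member higher and 3 lower, 5 were lower with the median of all genes set to 0 (a shift of 0.12), gene-file FPKM gave 2 higher and 1 lower, all isoforms of the locus gave 0 lower, and junction reads gave 2 higher and 0 lower. With gene-file FPKM, locus isoforms and junction reads the log2 ratio turned to 0.67, 0.54 and 0.79 for Ptprs, 0.46, 0.59 and 0.73 for Nrcam, and 0.59, 0.19 and 0.51 for Ncam1. Of the related genes, 3 were lower with a level of at least 1, 8 higher past 2-fold, and 4 lower by locus isoforms or 1 by junction reads. Locus isoforms and junction reads were chosen after seeing the data, and the cause of these differences was not tested. No paired analysis was possible because each condition has 1 library, and for the same reason no library could be left out.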
